A study of Homo sapiens with 6 samples.

Results

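A stable MDA-MB-231 line over-expressing the arginine tRNA locus chr16.trna1, with anticodon CCG, was set against mock-transfected MDA-MB-231 cells, with 2 Illumina BeadChip arrays of total RNA in each group. MDA-MB-231 is a widely used human line of triple-negative breast cancer, so the cells of every group share its tumour genotype, and all were grown in serum-supplemented DMEM-based medium. Genes were described where the probe's detection p was below 0.01 on 2 or more of these 4 arrays, which gave 10599 of the 10877 genes tested over the series. The third group, also of 2 arrays, came from cells that stably over-expressed the glutamate tRNA locus chr1.trna5 with anticodon TTC. It entered the same fit and is used only for comparison. The labels do not say whether a line was a clone or a pool, nor whether each array had a culture of its own, so the p-values reflect the spread between arrays alone, and that spread may be technical. With 1 line per group, a difference between lines and an effect of the tRNA cannot be told apart.

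Transfer RNAs carry amino acids to the ribosome, and the arginine tRNA with anticodon CCG reads the CGG codon. Its level is known to be raised in metastatic breast cancer cells, together with that of the glutamate tRNA with anticodon TTC. An aminoacyl-tRNA synthetase loads each tRNA with its amino acid, and uncharged tRNA activates the kinase GCN2 and through it ATF4, the transcription factor of the amino acid response. No probe was named for a tRNA gene, so the over-expression itself could not be checked on the arrays, which report mRNA and some noncoding RNA.

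Markers of the line were checked first. All 8 genes expected in MDA-MB-231, among them VIM and CD44, were detected, and of 7 luminal and hormone receptor genes the oestrogen receptor ESR1, the progesterone receptor PGR, CDH1, GATA3 and FOXA1 did not pass the detection rule. The other members, EPCAM and ERBB2, were detected on all 4 arrays, and EPCAM read 8.17 and 8.20 in tRNA-Arg cells, against 7.56 and 7.66 in control cells, and was 1.49-fold higher. The arrays detected 16719 to 17704 probes in the tRNA-Arg and control groups. Across genes, the 2 tRNA-Arg arrays correlated with r = 0.997 and the 2 control arrays with r = 0.996, and the correlation between the groups lay at 0.971 to 0.972. These correlations run across genes, which are no replicates of each other, and serve as a description.

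Expression differed widely between tRNA-Arg and control cells. Of the 10599 genes, 2441 were higher in tRNA-Arg cells (23.0%) and 2649 were lower (25.0%) at an adjusted p under 0.05 (limma), so 48.0% were called. With each array scaled to the same median in place of quantile normalization, 1330 of 10600 genes were called higher and 949 lower. This moved the share of calls that were higher to 58.4%, against 48.0% in the main setting. Counts of list members given below are to be read beside the counts over all genes in the same setting. Most differences were small: the median fold of a called gene was 1.40, the smallest was 1.15, and the median standard error of a log2 difference was 0.09. By at least 1.5-fold, 903 genes were higher (8.52%) and 869 lower (8.20%), and by at least 2-fold 313 were higher and 170 lower. At 4-fold and above, 34 genes were higher and 13 lower. The median log2 difference of all described genes was -0.02. In 75.3% of the genes both tRNA-Arg arrays lay on the same side of both control arrays. Every direction here is tRNA-Arg minus control from the array labels, and it opposes the sign in the authors' deposited table of fold changes: of 1470 called genes with at least a 1.5-fold difference and a value in the authors' deposited table, 1463 had the opposite sign there.

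**Figure D1:**
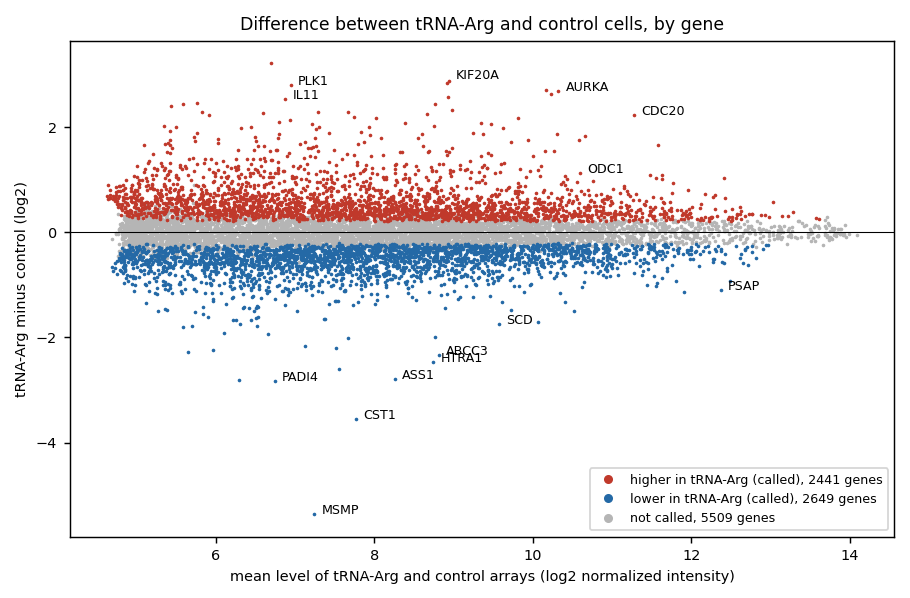
Each of the 10599 genes is a point, with the mean log2 normalized intensity of the tRNA-Arg and control arrays on the horizontal axis and the log2 difference, tRNA-Arg minus control, on the vertical axis. The 2441 genes called higher and the 2649 called lower spread over the whole range of levels, and MSMP and CST1 lie lowest.

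Detection set part of these counts. Of the described genes, 9668 were detected on all 4 arrays, and of these 2203 were called higher and 2446 lower (48.1% called). A further 199 genes were detected on both tRNA-Arg arrays and on neither control array, and 165 of them were called higher. The reverse held for 162 genes, of which 140 were called lower. Genes kept only through the group where they are high had to differ, so the last 2 counts are a description.

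The largest rises were in genes of mitosis and in testis antigens. KIF20A, a kinesin of the late mitotic spindle, had log2 normalized intensities of 10.37 and 10.37 in tRNA-Arg cells, against 7.52 and 7.49 in control cells. The difference of 2.87 ± 0.08 SE on the log2 scale (n = 2 in each group, adjusted p = 5.56e-06) is a 7.31-fold rise. PLK1, a kinase that drives entry into and passage through mitosis, read 8.35 and 8.33 in tRNA-Arg cells, against 5.50 and 5.61 in control cells, a 6.92-fold rise (2.79 ± 0.08 SE, adjusted p = 5.56e-06). For both genes the arrays of a group lay close together and the groups were far apart. AURKA, the centrosome kinase Aurora A, read 11.69 and 11.64 in tRNA-Arg cells, against 8.98 and 8.99 in control cells, and was 6.40-fold higher. CCNB1, the cyclin that activates CDK1 at mitotic entry, read 10.12 and 10.17, against 7.88 and 7.75 in control cells, and was 5.02-fold higher. SPANXC, SPANXB1, SPANXA2 and SPANXD, X-linked sperm proteins that tumours can express, were 7.10-, 6.49-, 6.20- and 5.96-fold higher. These SPANX genes are near-identical copies, so their probes may share signal and their values are uncertain as separate genes.

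A cytokine and a noncoding RNA complete the 10 largest rises among genes detected on all 4 arrays. IL11, a cytokine of the interleukin-6 family, read 8.08 and 8.20 in tRNA-Arg cells, against 5.76 and 5.47 in control cells, and was 5.77-fold higher (2.53 ± 0.11 SE, adjusted p = 1.20e-05). RPPH1, the RNA component of RNase P, which trims the 5′ ends of tRNAs, read 10.03 and 9.96 in tRNA-Arg cells, against 7.75 and 7.35 in control cells, and was 5.43-fold higher (2.44 ± 0.13 SE, adjusted p = 2.60e-05). The gap between the control arrays was widest for RPPH1 among these 10 genes, and the groups did not overlap. ACTG2, a smooth muscle actin, CCNA1, a germ-cell cyclin, FLG, a skin barrier protein, and TH, tyrosine hydroxylase, were not above background in control cells. They were at least 4.15-, 3.64-, 3.26- and 2.95-fold higher in tRNA-Arg cells. Such a bound sets the mean of the tRNA-Arg arrays against the lowest signals above background on the control arrays, or, where higher, the signals of the probe itself.

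The 3 largest falls among genes detected on all 4 arrays were of CST1, PADI4 and ASS1. CST1, cystatin SN, a secreted inhibitor of cysteine proteases, read 5.88 and 6.11 in tRNA-Arg cells, against 9.57 and 9.53 in control cells. This 11.8-fold fall is a difference of -3.56 ± 0.10 SE on the log2 scale (adjusted p = 5.56e-06). PADI4, which converts arginine residues of proteins to citrulline, read 5.22 and 5.44 in tRNA-Arg cells, against 8.18 and 8.15 in control cells, and was 7.12-fold lower (-2.83 ± 0.10 SE, adjusted p = 6.61e-06). ASS1, argininosuccinate synthase, which catalyses a step of arginine synthesis from citrulline, read 6.77 and 6.95 in tRNA-Arg cells, against 9.51 and 9.79 in control cells, and was 6.93-fold lower (-2.79 ± 0.12 SE, adjusted p = 1.20e-05). All 3 genes fell well below the lower control array on both tRNA-Arg arrays.

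Several of the other large falls were in genes of secretion, transport and complement. KLRC2, a receptor known from natural killer cells, was 6.02-fold lower, and HTRA1, a secreted serine protease, 5.52-fold lower. ABCC3, an export pump for organic anions, was 5.04-fold lower, with 7.67 and 7.63 in tRNA-Arg cells, against 10.00 and 9.97 in control cells. Complement factor B (CFB) and complement C5 were 4.61- and 4.46-fold lower. C1QTNF1, a secreted C1q-related protein, was 4.02-fold lower, and CPE, carboxypeptidase E of hormone processing, 3.96-fold lower. MSMP, a microseminoprotein that cells secrete, lay at background in tRNA-Arg cells, at 4.44 and 4.69, against 9.91 and 9.93 in control cells, and was at least 31.9-fold lower. The same bound was 3.64-fold for GPNMB, a glycoprotein of lysosomes and the cell surface, 2.13-fold for the ligand WNT5A, and 1.90-fold for DENND6B.

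**Figure D2:**
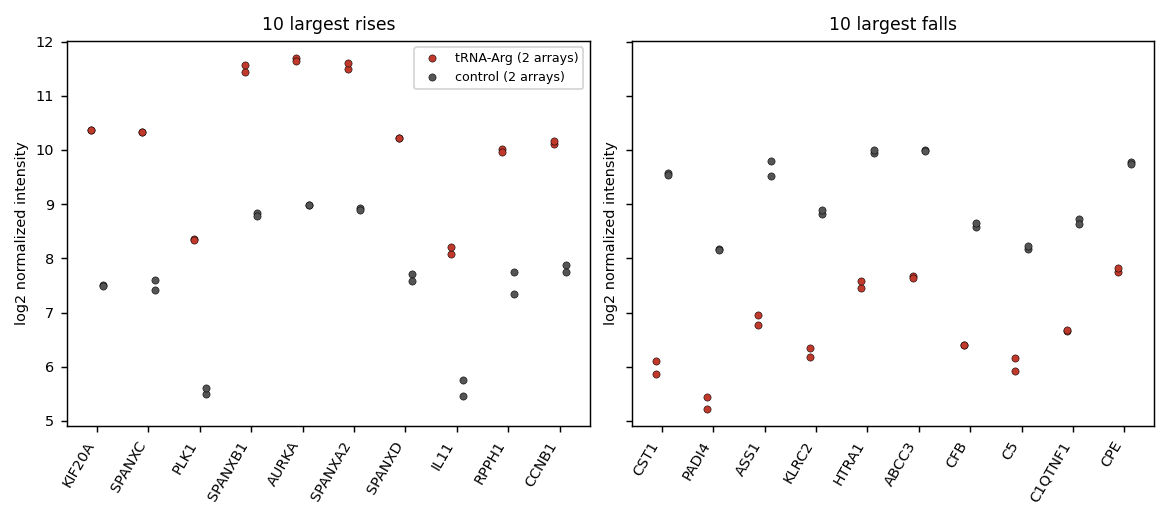
Log2 normalized intensity on each array for the 10 largest rises (left) and the 10 largest falls (right), with the 2 tRNA-Arg arrays of a gene left of its 2 control arrays. In each gene both tRNA-Arg arrays lie on the same side of both control arrays, from KIF20A at 2.87 above to CST1 at 3.56 below.

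Among the brightest genes with at least a 1.5-fold difference, PRDX1, an antioxidant peroxiredoxin, was 1.58-fold higher, with 12.70 and 12.80 in tRNA-Arg cells, against 12.08 and 12.11 in control cells. The histone gene H4C3 was 2.03-fold higher, CCN2, a matrix protein and target of the YAP pathway, 1.64-fold, and HMGN2, a nucleosome-binding protein, 1.59-fold. LGALS1, galectin-1, and AXL, a receptor tyrosine kinase, were 1.65- and 1.74-fold higher. Among the brightest genes that fell, PSAP, the precursor of the lysosomal saposins, read 11.79 and 11.85 in tRNA-Arg cells, against 12.90 and 12.95 in control cells, and was 2.15-fold lower. CST3, cystatin C, was 2.19-fold lower and SERPINE2, a protease inhibitor, 1.91-fold lower. VCL, the adhesion protein vinculin, TMEM14C and LAMA5, a laminin chain, were 1.55-, 1.57- and 1.51-fold lower. TMEM14C and LAMA5 were not called with median scaling, at adjusted p = 0.0857 and 0.128.

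Genes that load, mature and export tRNAs were next examined, since the manipulated molecule was a tRNA. Of 19 cytosolic aminoacyl-tRNA synthetases described, 9 were lower in tRNA-Arg cells and 0 were higher, with a median log2 difference of -0.22, against -0.02 over all described genes. RARS1, which loads arginine, read 11.58 and 11.57 in tRNA-Arg cells, against 11.39 and 11.42 in control cells, a difference of 0.17 ± 0.07 SE that was not called (adjusted p = 0.0887). EPRS1, which loads glutamate and proline, fell 1.29-fold (-0.36 ± 0.09 SE, adjusted p = 0.0123). The isoleucine enzyme IARS1 fell 1.78-fold, with 10.51 and 10.61 in tRNA-Arg cells, against 11.31 and 11.48 in control cells, and the methionine, asparagine and alanine enzymes MARS1, NARS1 and AARS1 fell 1.48-, 1.39- and 1.32-fold. This list rests on the scaling. With median scaling 1 of the 19 was called lower, no larger a share than the 949 of 10600 over all genes in that setting. The median was then -0.05, against 0.04 over all genes. EPRS1, MARS1, NARS1 and AARS1 were not called in that setting.

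In the list of tRNA processing and export, 8 of 24 genes were higher and 6 lower, near the shares over all described genes. XPOT, the export receptor of tRNAs, read 8.14 and 8.12 in tRNA-Arg cells, against 9.0 and 9.11 in control cells, and fell 1.91-fold (-0.93 ± 0.08 SE, adjusted p = 0.000160). TRNT1, which adds the terminal CCA to tRNAs, fell 1.87-fold. Protein subunits of RNase P and RNase MRP moved in both directions. POP1, POP5 and POP4 rose 1.64-, 1.43- and 1.41-fold and RPP30 fell 1.59-fold. POP7, RPP14, RPP21, RPP25, RPP38 and RPP40 were not called. POP4, RPP30 and the uncalled subunits were picked after their values were seen. With median scaling 3 members were called higher and 3 lower. Of 45 tRNA modification enzymes, 12 were higher and 9 lower: the pseudouridine synthase PUS3 fell 1.87-fold and QTRT1, a subunit of the queuosine transglycosylase, 1.67-fold. TRMT5, which methylates tRNA next to the anticodon, rose 1.68-fold on its brighter probe, and its other probe had the opposite sign. With median scaling 5 modification enzymes were called higher and 5 lower, without control replicate 1 or 2 there were 5 or 4 lower, and the list median of 0.03 changed sign without tRNA-Arg replicate 2 or control replicate 1.

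Of 26 genes of the RNA polymerase III machinery, which transcribes tRNA genes, 5 were higher (19.2%) and 3 lower (11.5%), and 18 were not called. Both shares lay below the 23.0% and 25.0% over all described genes. POLR3G, a polymerase III subunit, rose 1.64-fold and POLR3C 1.36-fold. Among 12 noncoding transcripts of polymerase III that were described, 6 were higher and 1 lower. SNAR-A1, a small noncoding RNA, rose 3.65-fold and the Y RNA RNY5 fell 2.01-fold. RNY5 was detected on the control arrays only, and RNU6ATAC, among those higher, on the tRNA-Arg arrays only, so both had to differ to be described. The arrays label RNA for mRNA measurement, so these small RNAs are measured less directly than mRNAs, and SNAR-A1 belongs to a family of near-identical copies. Of 68 cytosolic ribosomal proteins 8 were higher and 10 lower, both shares below those over all genes, with a median of 0.02 that changed sign with cyclic loess and without tRNA-Arg replicate 1. EXOSC2, a subunit of the RNA exosome, read 9.37 and 9.43 in tRNA-Arg cells, against 9.34 and 9.28 in control cells, and was not called (0.09 ± 0.08 SE, adjusted p = 0.381). GRIPAP1, a recycling endosome protein, read 7.82 and 7.66 in tRNA-Arg cells, against 7.91 and 8.07 in control cells, and was not called either (-0.25 ± 0.10 SE, adjusted p = 0.0693).

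Arginine is also a substrate of several enzymes and carriers, and these were listed separately. Of 29 such genes described, 9 were higher and 6 lower in tRNA-Arg cells, against 23.0% and 25.0% over all genes, with a median of 0.10. With median scaling 7 were called higher and 2 lower. Besides the falls of PADI4 and ASS1 given above, ODC1, ornithine decarboxylase, the entry enzyme of polyamine synthesis from ornithine, read 11.12 and 11.19 in tRNA-Arg cells, against 10.03 and 10.04 in control cells, and rose 2.17-fold (1.12 ± 0.07 SE, adjusted p = 6.22e-05). SLC7A2, a carrier of cationic amino acids, read 8.41 and 8.35 in tRNA-Arg cells, against 7.37 and 7.44 in control cells, and rose 1.97-fold (0.98 ± 0.08 SE, adjusted p = 0.000124). For all 4 genes the groups were apart. Some further members were picked after their values were seen. SLC7A1, the other cationic carrier of the list, differed the other way (-0.40 ± 0.10 SE, adjusted p = 0.0148), PRMT5, a protein arginine methyltransferase, rose by 0.68 on the log2 scale (adjusted p = 0.000447) with its partner WDR77 at 0.53, and CLNS1A, another partner of PRMT5, fell by 0.61. ASL, the enzyme that acts directly after ASS1, was not called (0.10 ± 0.07 SE, adjusted p = 0.295).

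Targets of ATF4 and enzymes of amino acid synthesis were mostly lower in tRNA-Arg cells. Of 26 described, 17 fell and 1 rose, against 25.0% and 23.0% over all genes, and the median log2 difference was -0.57. CHAC1, among those lower, was detected on the control arrays only, so it had to differ to be described. SESN2 and STC2, also lower, were not detected on all 4 arrays. The count and the median include these genes. In tRNA-Glu cells against control the median of the list was -0.69. ASNS, asparagine synthetase, read 9.79 and 9.73 in tRNA-Arg cells, against 11.23 and 11.31 in control cells, and fell 2.84-fold (-1.50 ± 0.08 SE, adjusted p = 1.85e-05). PCK2, the mitochondrial phosphoenolpyruvate carboxykinase, read 7.93 and 7.82, against 9.14 and 9.20 in control cells, and fell 2.45-fold. TRIB3, a pseudokinase that feeds back on ATF4, fell 1.97-fold. The gene that rose was ATF3, chosen here after its value was seen (0.61, adjusted p = 0.000706), and the ATF4 mRNA itself was not called (0.02, adjusted p = 0.848), although ATF4 is regulated largely in translation. With median scaling 12 of the 26 were called lower. Among 23 amino acid transporters 5 were higher (21.7%) and 7 lower (30.4%), near the shares over all genes. The neutral amino acid carrier SLC1A4 fell 2.17-fold and the mitochondrial glutamate carrier SLC25A22 1.66-fold.

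The region before the start of ASNS is shown because it holds the sequence by which ATF4 is known to act, the C/EBP-ATF response element. Searched as TGATGNAAN on both strands of the 250 bases before each start, from RefSeq promoters of build GRCh38.p14, this element was found in 4 of 21 list members with a promoter in the table, in 1.35% of 8659 described genes and in 3.18% of all 27305 promoters. Among members called lower it was found in 2 of 13, and over all genes in 1.54% of those lower and 1.82% of those higher by at least 1.5-fold. The match is given in capitals.

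ASNS, chr7:97872409-97872658, minus strand: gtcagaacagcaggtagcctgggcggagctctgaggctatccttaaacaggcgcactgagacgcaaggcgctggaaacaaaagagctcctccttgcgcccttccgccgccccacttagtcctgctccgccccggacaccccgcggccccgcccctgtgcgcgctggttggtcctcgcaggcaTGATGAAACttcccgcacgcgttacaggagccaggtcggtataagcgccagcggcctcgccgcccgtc

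Of 21 hypoxia targets 13 fell and 2 rose, with a median of -0.41, and VEGFA and DDIT4 among those that fell are also members of the ATF4 list. VEGFA, the growth factor of blood vessels, read 8.18 and 8.07 in tRNA-Arg cells, against 9.27 and 9.24 in control cells, and fell 2.20-fold (-1.13 ± 0.09 SE, adjusted p = 0.000114). DDIT4, an inhibitor of mTOR signalling, fell 2.50-fold, with 9.77 and 9.72 in tRNA-Arg cells, against 10.90 and 11.24 in control cells, and P4HA1, a collagen prolyl hydroxylase, fell 1.70-fold. LOX, lysyl oxidase, went the other way and rose 1.90-fold. With median scaling 7 were called lower. Of 26 glycolysis genes 5 were higher and 6 lower, near the background, but the aldolase ALDOC fell 2.58-fold, the enolase ENO2 1.97-fold and the glucose carrier SLC2A3 1.63-fold, while the carrier SLC2A1 rose 1.51-fold. With median scaling 2 glycolysis genes were called higher and 3 lower, without any 1 tRNA-Arg or control array 2 were higher, and the median changed sign without control replicate 1. SCD, the desaturase that makes monounsaturated fatty acids, read 8.70 and 8.70 in tRNA-Arg cells, against 10.40 and 10.49 in control cells, and fell 3.35-fold.

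**Figure D3:**
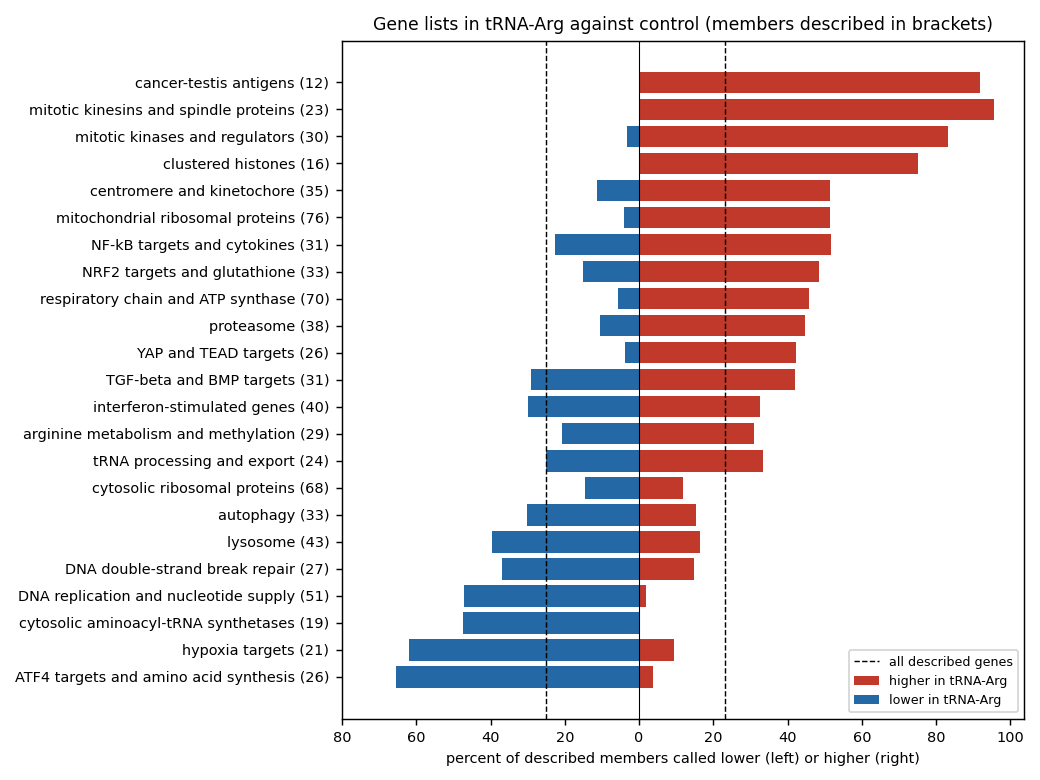
For 23 of the gene lists, the bar to the right is the percent of described members called higher in tRNA-Arg cells and the bar to the left the percent called lower, with the number of described members in brackets and dashed lines at the 23.0% and 25.0% of all described genes. Of the lists drawn, mitotic kinesins, testis antigens and mitotic kinases reach furthest right, and ATF4 and hypoxia targets furthest left.

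Genes of mitosis rose together. Of 30 mitotic kinases and regulators, 25 were higher and 1 was lower, with a median log2 difference of 1.23, and of 23 mitotic kinesins and spindle proteins 22 were higher and 0 lower, with a median of 0.85. CDC20, which activates the anaphase-promoting complex, read 12.38 and 12.40 in tRNA-Arg cells, against 10.16 and 10.16 in control cells, and rose 4.67-fold (2.22 ± 0.07 SE, adjusted p = 5.56e-06). CENPE, a kinesin of the kinetochore, read 9.79 and 9.79, against 7.58 and 7.51 in control cells, and rose 4.76-fold. KIF2C, a kinesin that takes down microtubules, and DLGAP5, a spindle protein, rose 4.24- and 4.53-fold. WEE1, which holds CDK1 inactive before mitosis, was the member that fell (-0.51, adjusted p = 0.00180), and CDK1 itself was not called (-0.08, adjusted p = 0.488), both named here after their values were seen. With median scaling 24 and 19 members of the 2 lists were called higher. Of 35 centromere and kinetochore genes, 18 were higher and 4 lower. CENPA, the centromeric histone, read 8.49 and 8.37 in tRNA-Arg cells, against 6.23 and 6.06 in control cells, and rose 4.88-fold, and CENPW, NDC80 and SPC25 rose 2.76-, 2.29- and 2.20-fold. KPNA2, an importin that also regulates spindle assembly factors, rose 2.50-fold.

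Upstream regions of 3 of these genes are shown because mitotic genes are known to share 2 promoter elements, the cell cycle genes homology region, TTTGAA or TTTAAA, and the CCAAT box. In the 250 bases before the start, on both strands, TTTGAA was found in 24 of 45 mitotic genes with a promoter in the table (53.3%), against 8.65% of described genes and 13.6% of all promoters. TTTAAA was found in 11 of the 45 (24.4%), against 6.92% of described genes, and CCAAT in 35 (77.8%), against 35.8%. Over all genes higher by at least 1.5-fold, TTTGAA was found in 13.8% of 716 promoters and CCAAT in 44.8%, against 7.16% and 33.1% of 712 promoters of genes lower by at least 1.5-fold. The matches are in capitals, and ATTGG is CCAAT read on the other strand. They describe letters in these windows, not occupied sites.

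KIF20A, chr5:138178862-138179111, plus strand: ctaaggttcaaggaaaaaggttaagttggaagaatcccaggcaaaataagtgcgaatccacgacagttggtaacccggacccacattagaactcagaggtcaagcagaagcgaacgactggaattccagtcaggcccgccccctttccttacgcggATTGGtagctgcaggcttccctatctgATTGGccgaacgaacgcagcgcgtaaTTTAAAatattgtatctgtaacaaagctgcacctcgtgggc
PLK1, chr16:23678639-23678888, plus strand: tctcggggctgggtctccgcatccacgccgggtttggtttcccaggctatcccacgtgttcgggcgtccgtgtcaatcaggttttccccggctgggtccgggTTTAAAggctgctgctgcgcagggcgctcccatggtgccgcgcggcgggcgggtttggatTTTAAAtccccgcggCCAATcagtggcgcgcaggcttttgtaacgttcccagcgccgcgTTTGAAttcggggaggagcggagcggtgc
CCNB1, chr5:69166900-69167149, plus strand: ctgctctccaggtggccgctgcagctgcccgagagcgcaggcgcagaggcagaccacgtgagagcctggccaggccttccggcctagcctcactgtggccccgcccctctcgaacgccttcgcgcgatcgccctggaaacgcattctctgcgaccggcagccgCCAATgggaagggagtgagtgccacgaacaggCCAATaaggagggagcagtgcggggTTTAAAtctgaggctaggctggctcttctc

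Genes of DNA replication did not rise with those of mitosis. Of 51 described, 24 fell and 1 rose, with a median of -0.23. E2F2, a transcription factor of the G1 to S transition, read 8.28 and 8.22 in tRNA-Arg cells, against 9.41 and 9.49 in control cells, and fell 2.29-fold. MCM6, part of the replicative helicase, read 10.99 and 10.91, against 11.97 and 11.93 in control cells, and fell 2.00-fold. PCNA, the sliding clamp, fell 1.60-fold and DUT, which removes dUTP from the nucleotide pool, 1.75-fold. The fall rests on the settings. With median scaling 4 members were called lower, no larger a share than the 949 of 10600 over all genes in that setting. The median was then -0.14, against 0.04 over all genes, and PCNA was not called. In DNA double-strand break repair 10 of 27 fell (37.0%) and 4 rose (14.8%), against 25.0% and 23.0% over all described genes. H2AX, the histone of the damage signal, was 1.84-fold higher and PALB2, the partner of BRCA2, 1.56-fold lower. XRCC4, among those higher, was detected on the tRNA-Arg arrays only, so it had to differ to be described. With median scaling 2 members of that list were called lower, again no larger a share than the 949 of 10600 over all genes. Leaving out 1 tRNA-Arg or control array left 5 to 7 lower, and without tRNA-Arg replicate 1 there were 2 higher. Bulk RNA does not tell fewer cells in a phase of the cycle from less RNA per cell.

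Replication-dependent histone genes rose, 12 of 16 described of 44 in the list, and 0 fell, with a median of 0.71. H4C2, H2BC6 and H2BC4, among those higher, were detected on the tRNA-Arg arrays only, so they had to differ to be described. The count and the median include them. H2AC20 read 8.33 and 8.25 in tRNA-Arg cells, against 6.92 and 6.89 in control cells, and rose 2.62-fold. H2AC19 and the linker histone H1-2 rose 2.12- and 1.99-fold. Most histone genes of the list did not pass the detection rule, and with undetected members counted the list had a median of 0.18. Their sequences are close to each other, so probes may share signal. With median scaling 11 were called higher, and without tRNA-Arg replicate 1 or replicate 2 there were 8.

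**Figure D4:**
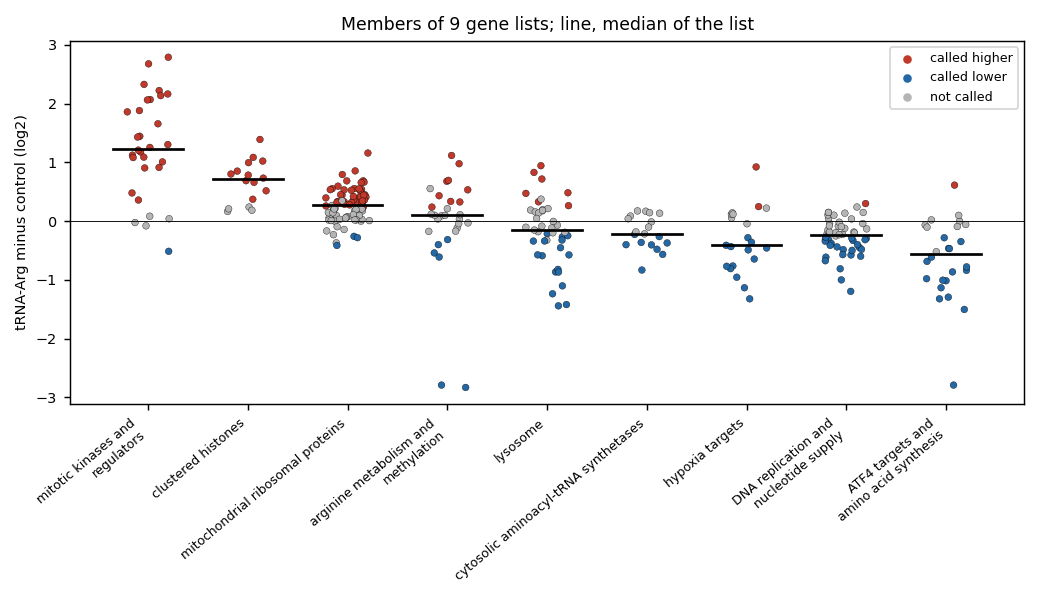
Each point is a described member of the list named below it, with its log2 difference, tRNA-Arg minus control, on the vertical axis, coloured by its call, and the line is the median of the list. The medians run from 1.23 for mitotic kinases and regulators to -0.57 for ATF4 targets, and PADI4 and ASS1 stand alone near -2.8 in the arginine list.

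Mitochondrial genes were shifted upward by small amounts. Of 76 mitochondrial ribosomal proteins 39 were higher and 3 lower, with a median of 0.27, and of 70 genes of the respiratory chain and ATP synthase 32 were higher and 4 lower, with a median of 0.22. MRPS15, of the small mitochondrial subunit, read 10.06 and 10.07 in tRNA-Arg cells, against 9.22 and 9.32 in control cells, and rose 1.73-fold. MRPL41 and MRPL19, of the large subunit, rose 1.81- and 1.61-fold, and MRPL35 2.23-fold, with another of its probes of the opposite sign. NDUFA7, of complex I, read 8.03 and 8.21 in tRNA-Arg cells, against 7.39 and 7.39 in control cells, and rose 1.66-fold. UQCR10, of complex III, rose 1.93-fold, while CYCS, cytochrome c, fell 1.76-fold. Of 25 genes of the TCA cycle 8 were higher and 1 lower, with pyruvate carboxylase (PC) 1.45-fold and SDHA 1.34-fold higher. With median scaling, 20 ribosomal, 17 respiratory and 2 TCA cycle genes were called higher, against 1330 of 10600 over all genes. For the TCA cycle list that was no larger a share than over all genes. The ribosomal count was 25 without tRNA-Arg replicate 1, and the respiratory count 21 without tRNA-Arg replicate 2.

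Proteasome genes showed the same direction, 17 of 38 higher and 4 lower, with a median of 0.20. PSMB2, a subunit of the core, read 11.11 and 11.10 in tRNA-Arg cells, against 10.25 and 10.33 in control cells, and rose 1.76-fold. PSMD2, of the regulatory particle, and PSME4, a proteasome activator, rose 1.63- and 1.5-fold. With median scaling 9 were called higher, as without tRNA-Arg replicate 2, and 11 without either control array. Among NRF2 targets and glutathione genes 16 of 33 rose and 5 fell. The aldo-keto reductases AKR1C2 and AKR1C3, close relatives in sequence, rose 2.31- and 1.74-fold, while ABCC3 and the glutathione transferase GSTM3 fell 5.04- and 2.45-fold. With median scaling 10 of these genes were called higher, as without tRNA-Arg replicate 1.

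Lysosomal genes were more often lower. Of 43 described, 17 fell and 7 rose, with a median of -0.15. CTSD, the aspartic protease cathepsin D, read 7.84 and 7.86 in tRNA-Arg cells, against 9.0 and 9.18 in control cells, and fell 2.36-fold (-1.24 ± 0.09 SE, adjusted p = 9.98e-05). CTSO, cathepsin O, fell 2.68-fold, and PSAP 2.15-fold as given above. GLA, the galactosidase of glycolipid breakdown, went the other way and rose 1.92-fold. With median scaling 8 members were called lower and 4 higher, with a median of -0.02, and without control replicate 2 there were 11 lower. Of 14 cystatins and kallikreins listed, 5 were described, all of them cystatins, a family known for inhibitors of cysteine cathepsins, and 3 fell and 1 rose. Beside CST1 and CST3, CST4 read 5.25 and 4.54 in tRNA-Arg cells, against 7.73 and 7.68 in control cells, and fell 6.98-fold. CST4 was not detected on all 4 arrays and its signal in tRNA-Arg cells was dim, so its fold is uncertain. The tRNA-Arg arrays differed more for CST4 than for CST1, and the SE of 0.20 for CST4 is correspondingly wide. CST6 rose 1.66-fold, and CSTB was not called (0.19 ± 0.08 SE, adjusted p = 0.0742). CST1 and CST4 are close relatives in sequence. In autophagy MAP1LC3A, an LC3 protein of the autophagosome membrane, rose 2.68-fold. Of 33 members of that list 10 were lower (30.3%) and 5 higher (15.2%), against 25.0% and 23.0% over all genes. With median scaling 1 was lower and 2 were higher.

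Inflammatory and interferon genes moved in both directions. Of 31 NF-kB targets and cytokines 16 rose and 7 fell, and of 40 interferon-stimulated genes 13 rose and 12 fell, with medians of 0.33 and -0.02. IL24, a secreted cytokine, read 7.35 and 7.42 in tRNA-Arg cells, against 5.47 and 5.81 in control cells, and rose 3.34-fold. VCAM1, an adhesion molecule for leukocytes, rose 2.14-fold and TRAF1, an adaptor of TNF receptors, 2.28-fold. OASL, an antiviral protein of the oligoadenylate synthetase family, read 7.39 and 7.22 in tRNA-Arg cells, against 5.27 and 5.38 in control cells, and rose 3.95-fold. IFIT1, ISG15 and IFIT2, also induced by interferon, rose 3.19-, 3.05- and 2.43-fold. The genes named here all rose and do not stand for the lists, in which 7 and 12 members fell. With median scaling 9 genes of each list were called higher, with 3 of the NF-kB targets and 2 of the interferon-stimulated genes lower.

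Of 21 antigen presentation genes 9 rose and 3 fell, against 23.0% and 25.0% over all genes. With median scaling 6 were called higher and 0 lower, and without tRNA-Arg replicate 2 or control replicate 1 there was 1 lower. HLA-DMB and HLA-DMA, which load peptides on class II molecules, rose 2.34- and 1.75-fold, HLA-DRA, a class II chain, 1.59-fold, and ULBP2, a ligand of the receptor NKG2D, 1.71-fold. Blood cell markers moved in the same direction: of 10 listed, 6 were described, and CD68, CSF1R, CD74, LAPTM5 and HLA-DRA were higher and CD14 lower. Their summed normalized intensity was 3664 and 3671 on the tRNA-Arg arrays, against 2432 and 2333 on the control arrays. PTPRC, TYROBP and CD3E did not pass the detection rule. The part of other cells in these results was not tested. Acute-phase and complement genes differed in direction among themselves, with SAA1 and SERPINA1 1.57- and 1.51-fold higher, and SERPINA3, CFB and C5 2.10-, 4.61- and 4.46-fold lower.

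Secreted regulators and targets of signalling pathways moved in both directions. In the TGF-beta and BMP list 13 of 31 genes rose (41.9%) and 9 fell (29.0%), against 23.0% and 25.0% over all genes. FST, follistatin, which binds activin, read 10.34 and 10.27 in tRNA-Arg cells, against 8.42 and 8.44 in control cells, and rose 3.66-fold (1.87 ± 0.09 SE, adjusted p = 1.56e-05). NOG, the BMP antagonist noggin, rose 2.46-fold, and ID3 and ID1, targets of BMP signalling, rose 3.20- and 2.73-fold. In the YAP and TEAD list 11 of 26 rose and 1 fell, with IGFBP3 1.95-fold, FOXF2 1.98-fold, AXL 1.74-fold and CCN2 1.64-fold higher. The member that fell was YAP1 itself (-0.32, adjusted p = 0.0108), and the target CCN1 was not called (0.02, adjusted p = 0.852), both named after their values were seen. Median scaling left 10 and 8 members of these lists called higher. NRG1, a ligand of ERBB receptors, read 8.21 and 8.29 in tRNA-Arg cells, against 6.26 and 6.30 in control cells, and rose 3.91-fold. In the testis antigen list 11 of 12 described genes rose, of 36 listed, with a median of 1.96. The count takes SPANXA1, SPANXA2, SPANXB1, SPANXC and SPANXD as separate genes, though their probes may share signal. MAGEC2, also higher, was detected on the tRNA-Arg arrays only, so it had to differ to be described. CABYR, a sperm flagellum protein, had the largest rise in it and over all described genes (3.21, adjusted p = 1.59e-05). CABYR was not detected on all 4 arrays and is named after its value was seen. With undetected members counted too, the list had a median of 0.16.

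The tRNA-Glu line shares the control arrays with this comparison, so the difference between the lines was tested directly. Of the described genes, 1982 were higher in tRNA-Arg than in tRNA-Glu cells (18.7%) and 2558 lower (24.1%), or 42.8% called. With median scaling these counts were 772 and 529, and leaving out 1 array of either line left 1190 to 1473 higher and 1389 to 1743 lower. Of the 10 largest rises, 7 were not called between the lines, and SPANXB1, SPANXA2 and SPANXD were lower in tRNA-Arg than in tRNA-Glu cells, by 0.25, 0.27 and 0.46 on the log2 scale. KIF20A read 10.37 and 10.37 in tRNA-Arg cells and 10.34 and 10.19 in tRNA-Glu cells, a difference of 0.11 ± 0.08 SE that was not called (adjusted p = 0.314). PLK1 differed by -0.19 ± 0.08 SE (adjusted p = 0.107) and IL11 by 0.06 ± 0.11 SE (adjusted p = 0.703), neither called. Some list medians against control also lay close together in tRNA-Arg and tRNA-Glu cells. They were 1.23 and 1.33 for mitotic kinases, 0.71 and 0.60 for histones and 0.27 and 0.28 for mitochondrial ribosomal proteins. Those of ATF4 targets were -0.57 and -0.69, of synthetases -0.22 and -0.33 and of DNA replication -0.23 and -0.25. Other medians lay apart, such as -0.15 and 0.11 in the lysosome list. The largest falls differed: all 10 of them were lower in tRNA-Arg than in tRNA-Glu cells, but they were chosen as the lowest on these same tRNA-Arg arrays, which favours that outcome, so it is a description.

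CST1 had the largest such difference. It read 5.88 and 6.11 in tRNA-Arg cells and 8.63 and 8.56 in tRNA-Glu cells, against 9.57 and 9.53 in control cells, and was 6.07-fold lower in tRNA-Arg than in tRNA-Glu cells (-2.60 ± 0.10 SE, adjusted p = 0.000163). CST4 was lower by 2.09 ± 0.20 SE on the log2 scale. PADI4 differed by -1.16 ± 0.10 SE (adjusted p = 0.000955), with 6.40 and 6.58 in tRNA-Glu cells, while ASS1 differed by -0.41 ± 0.12 SE (adjusted p = 0.0320). The levels of these genes ran in the order tRNA-Arg, tRNA-Glu and control from low to high.

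Immune genes were also lower in tRNA-Arg than in tRNA-Glu cells, with other orders against control. SAA1, an acute-phase protein, read 6.62 and 6.54 in tRNA-Arg cells and 8.50 and 8.71 in tRNA-Glu cells, against 6.02 and 5.83 in control cells, and was lower in tRNA-Arg than in tRNA-Glu cells by 2.03 ± 0.10 SE. SERPINA1, the elastase inhibitor, and EBI3, a cytokine subunit, were lower by 1.37 and 1.75. EBI3 read 5.59 and 5.79 in tRNA-Arg cells and 7.47 and 7.40 in tRNA-Glu cells, against 7.66 and 7.60 in control cells. In the interferon-stimulated list 20 of 40 genes were lower and 1 higher in tRNA-Arg than in tRNA-Glu cells, in the NF-kB list 16 and 2 of 31, in antigen presentation 11 and 1 of 21, and in the lysosome list 25 and 3 of 43, against 24.1% lower and 18.7% higher over all described genes. The summed blood cell markers were also lower in tRNA-Arg cells, at 3664 and 3671, than in tRNA-Glu cells, at 5754 and 6068, and their part in this was not tested. The list counts between lines were made in the main setting only. With median scaling 772 genes were higher and 529 lower over all genes, so the overall excess of lower genes was not kept.

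Other genes were higher in tRNA-Arg cells. XPOT, which read 8.14 and 8.12 in tRNA-Arg cells, read 6.75 and 6.80 in tRNA-Glu cells, against 9.0 and 9.11 in control cells, and the difference between lines was 1.35 ± 0.08 SE (adjusted p = 0.000554). TWF1, an actin-binding protein, and GOLM2, a Golgi membrane protein, had the same order of levels and differed by 1.43 and 1.43. RBM24, an RNA-binding protein of muscle, read 7.96 and 7.86 in tRNA-Arg cells and 6.56 and 6.63 in tRNA-Glu cells, against 6.52 and 6.42 in control cells, so that it was high in tRNA-Arg cells and was not called in tRNA-Glu cells against control (adjusted p = 0.231). FLG differed by 1.71 ± 0.12 SE. CCN2 was higher in tRNA-Arg than in tRNA-Glu cells by 0.91 ± 0.09 SE. In the YAP and TEAD list 13 of 26 genes were higher and 4 lower, a count made in the main setting only.

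**Figure D5:**
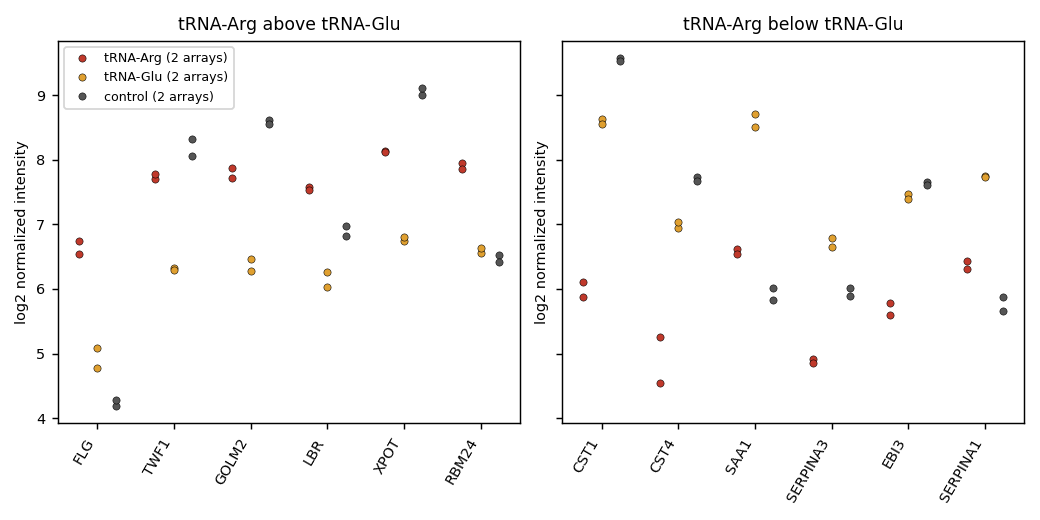
Log2 normalized intensity on each array for the 6 genes furthest above (left) and the 6 furthest below (right) tRNA-Glu in tRNA-Arg cells, with the 2 tRNA-Arg arrays of each gene left, the tRNA-Glu arrays in the middle and the control arrays right. CST1 is lowest in tRNA-Arg cells at 5.88 and 6.11, and SAA1 is highest in tRNA-Glu cells at 8.50 and 8.71.

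The differences were spread over the level of expression and over the chromosomes. With genes ranked by mean level and cut into 4 equal parts, 41.6%, 52.3%, 51.9% and 46.2% were called from the dimmest part to the brightest. By chromosome, the share called higher ranged from 12.4% of 429 genes on chromosome 10 to 31.1% of 569 genes on chromosome 6, and the share called lower from 18.4% of 364 genes on the X chromosome to 35.2% on chromosome 10. The median log2 difference was -0.14 on chromosome 10 and 0.06 on chromosome 1, so these shifts were small beside those of the named genes. Copy number was not measured, and its part in this was not tested.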

How the data were processed

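Total RNA, DNase-treated on the column and biotin-labelled with a TargetAmp-Nano kit per the labels' protocols, was measured on 6 arrays. The authors deposited non-normalized intensity values, each paired with its detection p-value, for 47323 probes, processed intensity values, and a table of log2 fold changes per symbol whose sign is not stated. The submitters' processing notes name lumi, and its version and settings are not given in the sources used here.

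Intensities were background-corrected and quantile-normalized on the log2 scale with neqc of limma 3.58.1 (R 4.3.3, offset 16, background from the detection p-values). Probes were kept where 2 or more of the 6 arrays had a detection p below 0.01. Of all probes, 30113 had 1 gene in the annotation used, 8 had several and 17202 had none. Of the 18106 kept probes 14337 had 1 gene, and the probe of highest mean stood for its gene. In 220 of the 1398 called genes with several probes, a probe had the opposite sign. A single fit of 3 groups (lmFit and eBayes, 3 residual and 4.28 prior degrees of freedom) gave p-values, adjusted over all 10877 genes by Benjamini-Hochberg and called under 0.05. A gene lay at background in a group where neither array had a detection p below 0.05. Precision is limited by the number of arrays. The fit was tested on simulated data.

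Members and lists were chosen with earlier results of these data known. Genes were named by rule: the 10 largest rises and falls, the 4 largest against a group at background, the 6 brightest each way, the 6 furthest from tRNA-Glu each way, up to 4 of smallest p per list, EXOSC2, GRIPAP1, RARS1 and EPRS1, and 3 unnamed probes each way. List counts are descriptions and no set test was made. Upstream sequences are RefSeq's, matched by gene ID for 8659 described genes. The arginine and codon content of proteins was not analysed here. Alternatives covered normalization, background, the authors' processed values, filters, probe choice, the arrays fitted, the variance model, a replicate block and leaving out each array.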

Additional observations from a re-analysis of the deposited data

Results flagged for a closer look

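Of the described genes, 130 were called in opposite directions against control in the 2 over-expression lines and were also called between the lines: 42 were higher in tRNA-Arg and lower in tRNA-Glu cells, and 88 the reverse. The genes named by rule among them were SERPINA3, a serum protease inhibitor, and LBR, the lamin B receptor of the inner nuclear membrane. SERPINA3 read 4.92 and 4.85 in tRNA-Arg cells and 6.65 and 6.79 in tRNA-Glu cells, against 6.02 and 5.89 in control cells, with a difference between lines of -1.83 ± 0.09 SE (limma adjusted p = 0.000367). LBR read 7.58 and 7.52 in tRNA-Arg cells and 6.02 and 6.26 in tRNA-Glu cells, against 6.82 and 6.97 in control cells, with a difference of 1.41 ± 0.10 SE (adjusted p = 0.000622).

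Probes without a gene name in the annotation used were outside the gene-level comparison. Of 3534 described, 613 were called higher and 554 lower in tRNA-Arg cells. The probe ILMN_1660067 read 8.69 and 8.88 in tRNA-Arg cells, against 5.07 and 5.08 in control cells, a log2 difference of 3.70. ILMN_2150851 differed by 3.12 and ILMN_2150856 by 3.10, both with non-overlapping arrays.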

How the results depend on the processing

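Median scaling gave 1330 genes higher and 949 lower in tRNA-Arg than in control cells, and 772 higher and 529 lower than in tRNA-Glu cells. With all kept probes tested, 3220 were higher than in tRNA-Glu cells, a count over more features. Leaving out any 1 of the 6 arrays left 1651 to 2303 genes higher and 1916 to 2549 lower than control, and leaving out 1 array of either line left 1190 to 1473 higher and 1389 to 1743 lower than tRNA-Glu. Leaving out a tRNA-Glu array and adjusting over the described genes only were chosen after seeing the data. Of 267 named genes, 232 kept their call and direction in every setting that gave a value. Of 4476 such values, 4424 had the same direction and call, 45 lost the call, 7 gained it and 0 reversed. The replicate block gave 2315 higher and 2512 lower against control and 1899 and 2427 against tRNA-Glu. Deviations of same-numbered tRNA-Arg and control arrays correlated at 0.02. This value cannot exclude shared handling of same-numbered arrays, and the labels name no batch.

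The median of all genes moved to 0.04 with median scaling, against -0.02. Medians of the lists on interferon-stimulated genes, autophagy, cholesterol synthesis, fatty acid metabolism, amino acid transporters, immediate early genes and tubulins changed sign with it. The cause was not tested. Signal over background limits the dim genes, which are given as bounds.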

Other observations

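Matrix, protease and cytoskeleton genes moved in both directions in tRNA-Arg cells. Of 26 proteases and inhibitors 12 rose and 5 fell, of 36 integrins and matrix proteins 14 rose and 12 fell, of 30 collagens and laminins 12 rose and 9 fell, and of 47 actin and myosin genes 17 rose and 7 fell (limma, adjusted p under 0.05), against 23.0% higher and 25.0% lower over all described genes. With median scaling these counts were 11 and 3, 11 and 4, 9 and 4, and 9 and 3. PLAT, tissue plasminogen activator, read 9.36 and 9.52 in tRNA-Arg cells, against 7.91 and 7.93 in control cells, and rose 2.86-fold. The metalloproteases ADAMTS1 and ADAM19 rose 2.36- and 2.29-fold. MATN2, the matrix protein matrilin-2, read 7.45 and 7.42 in tRNA-Arg cells, against 5.32 and 5.57 in control cells, and rose 3.98-fold, and the matrix glycoprotein TNC rose 1.80-fold. ITGA10, a collagen-binding integrin chain, read 5.16 and 5.13 in tRNA-Arg cells, against 7.15 and 6.99 in control cells, and fell 3.78-fold, and LAMB2, a laminin chain, fell 1.98-fold. MYH10, a nonmuscle myosin, rose 2.02-fold.

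Of 16 epithelial adhesion and keratin genes 6 rose (37.5%) and 2 fell (12.5%), against 23.0% and 25.0% over all described genes. With median scaling 5 rose and 0 fell. KRT8 and KRT19, keratins of simple epithelia, rose 2.27- and 1.73-fold, and DSP, a desmosome protein, 1.79-fold. Of 21 mesenchymal genes 6 rose and 4 fell, and 4 and 2 with median scaling. CNN2, a calponin, ACTA2, a smooth muscle actin, and CDH11, a cadherin, rose 1.46-, 1.59- and 1.38-fold. ZEB1, a repressor of epithelial genes, read 5.57 and 5.38 in tRNA-Arg cells, against 6.04 and 6.34 in control cells, and fell 1.64-fold, while VIM, the mesenchymal filament protein, was not called (0.06 ± 0.08 SE, adjusted p = 0.568). S100A2, a calcium-binding protein, and ANXA10, an annexin, rose 2.94- and 2.66-fold, and ANXA4 fell 1.98-fold.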
